A study of Homo sapiens with 12 samples.

Results

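The clustered protocadherins are cell surface adhesion proteins encoded by 3 neighbouring gene clusters, alpha, beta and gamma, on human chromosome 5. The genes described here were all those in the deposited count tables whose symbol begins with PCDHA, PCDHAC, PCDHB, PCDHGA, PCDHGB or PCDHGC and ends with a number. There were 51 such genes of 25433 in either table, 16 in the alpha, 13 in the beta and 22 in the gamma cluster. GENCODE 29 lists 54 genes by the same rule, and PCDHB1, PCDHB7 and PCDHB12 had no row in the tables used here. Both tables held 49 of the members. PCDHB9 and PCDHB10 had values only in the table that sets acetate beside TGF-β1, so they have no control values. In hg38 the alpha genes span chr5:140786136-141012347, the beta genes chr5:141094578-141249365 and the gamma genes chr5:141330571-141512981, all on the plus strand.

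The cells were A549, a human lung adenocarcinoma line that is widely used as a model of alveolar epithelium and is a tumour line rather than normal lung. Total RNA depleted of ribosomal RNA was sequenced from 12 libraries in 3 groups of 4: untreated control cells, cells given transforming growth factor β1 (TGF-β1, a cytokine known for turning epithelial cells mesenchymal) at 10 ng/mL, and cells given the same TGF-β1 together with 40 mM sodium acetate, all for 2 days. The column codes of the tables, such as S1, match no sample label, so libraries were assigned to groups from how the tables set them side by side. No group received acetate alone, so an effect of acetate could be read only in the presence of TGF-β1. The labels do not say whether replicate libraries were grown apart, so every p-value here is set against a spread that may be technical only. The library totals were 34698057 to 53936023 counts, and 3 counts in a library corresponded to 0.0556 to 0.0865 CPM, the usual unit for a count relative to its library's total.

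Clustered protocadherins are best known from neurons, where different cells express different combinations and the proteins bind only to identical partners on another cell, which gives a cell a surface identity. In the alpha and gamma clusters each gene has its own large first exon, with its own promoter, which encodes the outer part of the protein, the membrane span and the start of the tail. That exon is spliced to 3 constant exons that all genes of the cluster share and that encode the common inner tail. Beta genes have a single coding exon and no constant exons. Most of these promoters carry a short conserved element bound by CTCF, a factor that with cohesin folds a chosen promoter onto a distant enhancer, and unused promoters are often DNA methylated. The last genes of the clusters, PCDHAC1, PCDHAC2, PCDHGC3, PCDHGC4 and PCDHGC5, are called C-type and tend to be expressed more uniformly than the others.

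The shared exons mattered for every alpha and gamma value here. By the annotation, 15 alpha genes (all but the pseudogene PCDHA14) share 2866 bases in 3 exons of 59, 89 and 2718 bases. The 22 gamma genes share 2181 bases in 3 exons of 59, 89 and 2033 bases. The deposited counts of genes in 1 cluster were close to each other in every library. PCDHA7, for example, had 1091, 1017, 822 and 1127 counts in the control libraries, while PCDHAC2 had 1360, 1317, 1015 and 1403. If reads in the common exons were counted for every gene that holds them, subtracting the smallest count among the sharing genes in each library separates 2 quantities. The smallest count, called shared reads below, is the most that reads in the common exons can account for, and the remainder, called specific reads, is a lower bound on the reads in a gene's own exons.

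Shared reads numbered 408 to 1122 per library in the alpha cluster and were a median of 91.9% of a gene's deposited count (range 67.2% to 100%). In the gamma cluster they numbered 269 to 493 and were a median of 92.3% (50.4% to 100%). In all 12 libraries, 6 of the 15 alpha genes and 5 of the 22 gamma genes stayed within 5% of the shared count. Reads that may be common to a cluster could thus make up most of the deposited count of an alpha or gamma gene. This split was introduced after the counts were seen, and both the deposited counts and the split are given below.

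The first of the shared exons is printed for each cluster, since these are the letters that cannot be assigned to 1 gene. Both lie on the plus strand of hg38, the alpha exon at chr5:140978949-140979007 and the gamma exon at chr5:141494807-141494865. Capitals mark the 39 of 59 positions (66.1%) with the same base in both.
alpha constant exon: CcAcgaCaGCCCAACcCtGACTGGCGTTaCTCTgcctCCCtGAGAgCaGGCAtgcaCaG
gamma constant exon: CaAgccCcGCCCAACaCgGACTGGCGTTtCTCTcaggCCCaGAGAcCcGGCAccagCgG
These exons are alike between the clusters, but every one of the 15 alpha genes, or of the 22 gamma genes, uses the identical copy of its own cluster.

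**Figure D1:**
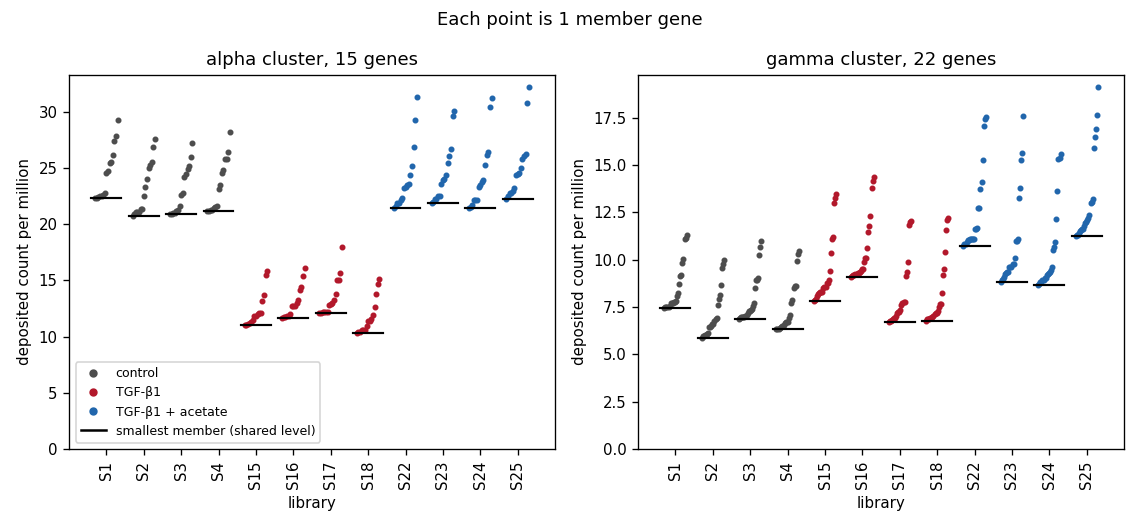
Deposited counts in CPM (vertical axis) of the 15 alpha genes (left) and 22 gamma genes (right) that share exons, in each of the 12 libraries (horizontal axis, coloured by group). Each point is 1 gene and the black line is the smallest member, taken as the shared level. Most points lie on or near the line, which falls to between 10.3 and 12.1 in the alpha cluster with TGF-β1.

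The own promoters of the genes are separate sequences, unlike the constant exons. RefSeq promoter windows (GRCh38.p14, 250 bases before to 50 after each start) were matched by symbol for 44 of the 51 members, and none was matched for PCDHA3, PCDHA13, PCDHA14, PCDHB6, PCDHB11, PCDHGA12 and PCDHGC5. All 8-letter words were counted on both strands, and for each cluster the most widely held word is described. GATGTCGC tied in the alpha genes and GGTGGCGC in the beta genes, and the word rarer over all windows was kept. Each word was chosen from these same promoters, so its frequency beside all windows is a description and not a test. ATGTCGCT stood in 9 of 13 alpha genes and in 0.234% of all 35116 windows. GTGGCGCT stood in 11 of 11 beta genes and in 1.15% of all windows, and GCCGCTGT in 11 of 20 gamma genes and in 1.63% of all windows. The 3 words overlap in the letters CGCT, and all matches in members were on the gene's own strand. A shorter word, CGCTG, which GCCGCTGT contains, stood in 48.0% of all windows and so marked little. The word began a median of 52 bases before the start in the alpha genes, 65 in the beta and 67 in the gamma genes. PCDHA9, PCDHA11, PCDHAC1 and PCDHAC2 did not hold the alpha word.

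For 3 members of each cluster described below, 40 bases around the word are printed on the plus strand, with the word in capitals, to show what the promoters of a cluster have in common. They lie at chr5:140794777-140794816, chr5:140821538-140821577, chr5:140875240-140875279, chr5:141187070-141187109, chr5:141192295-141192334, chr5:141213861-141213900, chr5:141350023-141350062, chr5:141387615-141387654 and chr5:141475878-141475917, in the order printed.
PCDHA2: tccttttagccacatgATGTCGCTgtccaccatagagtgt
PCDHA5: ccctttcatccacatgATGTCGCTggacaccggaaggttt
PCDHA12: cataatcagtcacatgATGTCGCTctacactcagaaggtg
PCDHB9: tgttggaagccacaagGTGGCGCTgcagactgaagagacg
PCDHB10: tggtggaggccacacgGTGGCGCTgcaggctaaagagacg
PCDHB13: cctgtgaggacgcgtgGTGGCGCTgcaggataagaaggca
PCDHGB1: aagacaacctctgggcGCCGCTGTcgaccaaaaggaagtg
PCDHGB4: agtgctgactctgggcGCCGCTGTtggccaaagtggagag
PCDHGC3: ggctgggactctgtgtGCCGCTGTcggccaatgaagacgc
The lower-case letters differ from gene to gene, but to unequal degrees. Those of PCDHB9 and PCDHB10 are largely the same, so the likeness is not confined to the word. A match is a string of letters and not a measured binding site.

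With TGF-β1 the alpha genes called went down, while the beta and gamma genes called went up. In the deposited counts, all 15 alpha genes with the constant exons were lower than in control cells. Among the beta genes 5 were higher, and among the gamma genes 7 were higher, with none lower. Of the 51 members, 46 passed the filter on low counts, and 12 of these rose and 15 fell with an adjusted p under 0.05 (edgeR quasi-likelihood test, Benjamini-Hochberg over all 22051 genes tested). Across all genes tested 66.9% were called, 34.1% higher and 32.8% lower, so a call by itself was common in this experiment. The median log2 fold change was -0.90 over the 16 alpha genes, 0.72 over the 8 beta genes tested and 0.20 over the 22 gamma genes, against 0.02 over all genes. With library totals in place of TMM scaling (trimmed mean of M values) the median over all genes was -0.09, so values near 0 depend on the scaling. Because the 15 alpha calls may rest largely on the same shared reads, they cannot be taken as 15 separate observations. The largest deposited decreases were those of PCDHAC2 (log2 fold change -1.13, SE 0.06, adjusted p = 1.6e-11), PCDHAC1 (-1.05) and PCDHA11 (-0.97). The authors' deposited table gives -1.13 for PCDHAC2 on the log2 scale. PCDHA14, which has no constant exon and whose 2298 bases all lie within PCDHA10, was the alpha gene without a call (-0.30, adjusted p = 0.371).

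Counted once, the shared reads of the alpha cluster stood at 22.3, 20.7, 20.9 and 21.1 CPM in the control libraries. They stood at 11.0, 11.7, 12.1 and 10.3 with TGF-β1, and at 21.5, 21.8, 21.4 and 22.3 with TGF-β1 and acetate. The TGF-β1 libraries lay below all others, while the control and acetate libraries overlapped. The log2 fold change was -0.91 (SE 0.06, adjusted p = 3.89e-10 by edgeR) for TGF-β1 against control and 0.96 (SE 0.06, adjusted p = 8.19e-10) for acetate with TGF-β1 against TGF-β1. Between acetate with TGF-β1 and control it was 0.04 (SE 0.05, adjusted p = 0.537). These 3 comparisons share libraries by pairs and are not independent of each other. In total RNA from a culture, fewer expressing cells and less RNA per cell cannot be told apart.

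Specific reads showed that the alpha genes did not move alike. With TGF-β1, 10 of the 15 alpha genes had enough specific reads to be tested, and 7 were lower and 2 higher. The share of all genes called in that fit was also 66.9%. The range ran from a log2 fold change of -2.56 to 0.70, whereas the deposited counts of the same genes spanned only -1.13 to -0.69. The 2 that rose, PCDHA2 and PCDHA5, are both named in what follows.

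PCDHAC2, a C-type gene needed for the even spacing of serotonergic axons in the brain, fell most. Its specific reads were 5.57, 6.12, 5.06 and 5.29 CPM in control cells, 1.10, 1.03, 0.928 and 0.682 with TGF-β1, and 1.97, 2.21, 2.46 and 2.72 with TGF-β1 and acetate. The 3 groups did not overlap. Against control the log2 fold change with TGF-β1 was -2.56 (SE 0.13, adjusted p = 3.32e-11), and with acetate added it was 1.34 above TGF-β1 (SE 0.17, adjusted p = 5.18e-06). It stayed below control, at -1.23 (SE 0.12, adjusted p = 2.17e-08).

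PCDHAC1, the other alpha C-type gene, had specific reads of 3.83, 4.53, 4.27 and 4.65 CPM in control cells. With TGF-β1 the values were 0.783, 1.32, 0.868 and 1.27, and with acetate added they were 3.69, 4.26, 4.71 and 3.93. TGF-β1 libraries were the lowest, and the other groups overlapped. The log2 fold changes were -2.04 (SE 0.15, adjusted p = 2.99e-09) with TGF-β1 and 2.00 (SE 0.16, adjusted p = 2.23e-08) with acetate against TGF-β1. Against control, the acetate group differed by -0.06 (SE 0.12, adjusted p = 0.692).

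PCDHA3 and PCDHA4 had the most alpha specific reads over the 12 libraries. For PCDHA3 the control libraries held 3.09, 3.28, 3.58 and 3.71 CPM, the TGF-β1 libraries 4.40, 3.75, 3.55 and 4.36, and the acetate libraries 9.79, 8.23, 9.75 and 9.91. Control and TGF-β1 overlapped (log2 fold change 0.24, SE 0.10, adjusted p = 0.0535), and all acetate libraries lay above both (1.24 against TGF-β1, SE 0.09, adjusted p = 1.31e-08). The first of these crossed the threshold when library S17 was left out (adjusted p = 0.0233), when S16 was (0.0463), and when the shared part was taken from 1 fixed gene, the one with the fewest counts over all libraries (0.0451). PCDHA4 held 6.97, 6.81, 6.36 and 7.04 CPM in control, 4.82, 4.40, 5.88 and 4.87 with TGF-β1, and 7.82, 7.74, 9.01 and 8.49 with acetate added. Its groups did not overlap, with log2 fold changes of -0.43 (SE 0.09, adjusted p = 0.000419) and 0.73 (SE 0.09, adjusted p = 5.15e-06).

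The 2 alpha genes whose specific reads rose with TGF-β1 were neighbours of these on the chromosome. PCDHA2 rose from 0.492, 0.591, 0.716 and 0.490 CPM in control to 0.832, 1.06, 0.750 and 1.07 with TGF-β1, and to 1.86, 2.08, 2.03 and 2.10 with acetate added. The 3 groups were separate, with log2 fold changes of 0.70 (SE 0.21, adjusted p = 0.00814) and 1.15 (SE 0.16, adjusted p = 1.19e-05). PCDHA2 and PCDHA3 overlap in 562 bases of exon, so some of their specific reads may be the same. PCDHA5 held 2.44, 1.71, 1.84 and 1.96 CPM in control and 2.15, 2.74, 2.94 and 2.39 with TGF-β1, which overlapped (0.37, SE 0.14, adjusted p = 0.0283). That call was lost with library totals (adjusted p = 0.106), and leaving out S2, S3, S4, S16 or S17 also ended it (up to 0.116). With acetate added PCDHA5 was at 2.91, 3.58, 3.78 and 3.49 CPM.

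PCDHA12 held 5.1, 4.81, 4.04 and 4.67 CPM of specific reads in control, 2.69, 2.49, 2.96 and 3.46 with TGF-β1, and 5.35, 4.88, 5.01 and 3.81 with acetate added. The TGF-β1 libraries were the lowest (-0.68, SE 0.11, adjusted p = 4.71e-05), and the other groups overlapped. PCDHA11 held 3.20, 4.28, 3.35 and 3.43 CPM in control, 1.08, 1.03, 1.70 and 1.63 with TGF-β1, and 2.05, 1.71, 2.29 and 2.31 with acetate added, and its groups did not overlap. It fell by 1.36 (SE 0.16) on the log2 scale with TGF-β1, and PCDHA10 fell by 0.91 (SE 0.17). PCDHA11 was still below control with acetate added (-0.76, SE 0.15, adjusted p = 0.000174). PCDHA1 had few specific reads: 16, 18, 11 and 19 counts in control, 0, 6, 3 and 4 with TGF-β1, and 32, 24, 29 and 40 with acetate. The TGF-β1 libraries were near the limit of 3 counts, so its fitted changes of -2.06 (SE 0.47) and 3.28 (SE 0.42) are imprecise. PCDHA1 also passed the filter on low counts only through its control libraries in the first fit and its acetate libraries in the second. PCDHA6, PCDHA7, PCDHA8, PCDHA9 and PCDHA13 were not tested for TGF-β1, since their specific reads did not pass the filter, and averaged at most 0.249 CPM in control.

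**Figure D2:**
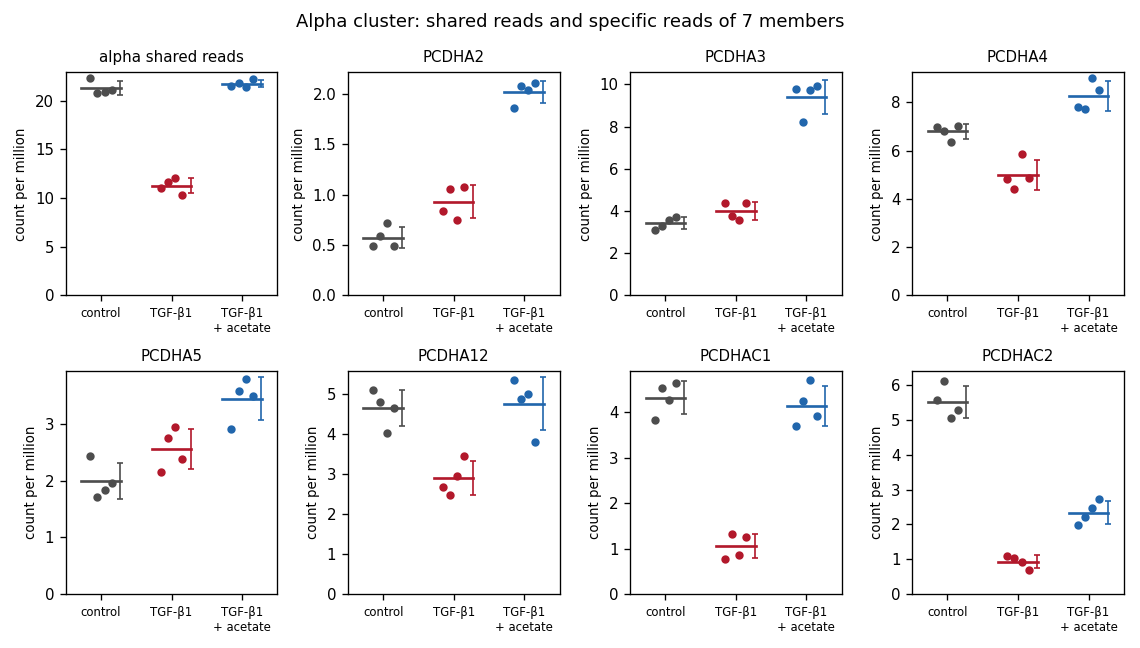
CPM (vertical axes, each from 0) of the alpha shared reads and of the specific reads of 7 alpha genes, in control, TGF-β1 and TGF-β1 plus acetate libraries. Points are libraries (4 a group), horizontal lines are means and bars are SD. PCDHAC1 and PCDHAC2 drop to means of 1.06 and 0.935 with TGF-β1, while PCDHA3 stays near its control level and rises with acetate.

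Whether a gene departed from its cluster was tested by scaling its specific reads to the shared reads of the same library, within the fit across all genes (66.8% of all genes called with TGF-β1 in that fit, the other genes being scaled as before). With TGF-β1, specific reads of PCDHAC2 fell further than the shared reads did, by a log2 ratio of -1.65 (SE 0.13, adjusted p = 9.3e-09 by edgeR), and those of PCDHAC1 by -1.13 (SE 0.16, adjusted p = 1.33e-05). Relative to the shared reads PCDHA2 was higher by 1.62 (SE 0.23), PCDHA5 by 1.28 (SE 0.13), PCDHA3 by 1.15 (SE 0.12) and PCDHA4 by 0.48 (SE 0.09), with adjusted p at most 0.000113. The specific reads of PCDHAC2 equalled 25.9% ± 2.4 of the shared reads in control (SD, n = 4) and 8.28% ± 1.4 with TGF-β1. For PCDHA3 the percentages were 16.1% ± 1.7 and 36.0% ± 6.2. Within the alpha reads the 2 C-type genes thus lost share with TGF-β1 and PCDHA2 to PCDHA5 gained share. PCDHA11 (-0.46, adjusted p = 0.0273) and PCDHA1 (-1.17, adjusted p = 0.0461) also fell relative to the shared reads, and the call of PCDHA1 was lost in 7 of the 8 fits that left out 1 library, with adjusted p up to 0.138.

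Per kilobase of own exon, PCDHA12 led the alpha genes in control cells at 1.80 CPM per kb, followed by PCDHAC2 at 1.60, PCDHAC1 at 1.06 and PCDHA11 at 1.04. With TGF-β1 the order was PCDHA12 at 1.12, PCDHA3 at 0.874 and PCDHA5 at 0.602, with PCDHAC2 at 0.271 and PCDHAC1 at 0.260. With acetate added, PCDHA3 at 2.05 and PCDHA12 at 1.84 led, and PCDHAC1 at 1.02 and PCDHA5 at 0.811 followed. Antisense genes overlap the own exons of several of these genes, and whether the counting used strand is not given in the sources used here. AC005609.18 covers 577 of the 2588 own bases of PCDHA12, and its log2 fold changes were -0.71 (SE 0.18) with TGF-β1 and 0.58 (SE 0.19) with acetate against TGF-β1. AC005609.16 covers 590 own bases of PCDHA5, 433 of PCDHA3 and 398 of PCDHA1. It had 44 to 71 counts in control, 47 to 93 with TGF-β1 and 87 to 126 with acetate (0.24, SE 0.18, adjusted p = 0.253, and 0.75, SE 0.15). The part of these antisense genes in the specific reads was not tested. Summed over the 15 genes, own-exon density was 8.06, 4.65 and 9.37 CPM per kb in the 3 groups, beside 7.42, 3.93 and 7.59 in the shared exons. The specific reads of the 15 genes together were 161% ± 11.3 of the shared reads in control (SD, n = 4), 186% ± 18.5 with TGF-β1 and 189% ± 9.48 with acetate added. In the gamma cluster the sums were 7.39, 9.59 and 12.2 beside 3.04, 3.48 and 4.53, so the own exons summed to more than the shared exons in every group.

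Beta genes share no constant exon, so no shared part was subtracted from their counts. Reads could still align to more than 1 of these similar genes. Other annotated genes also overlap their exons, by 620 of 4126 bases in PCDHB2 and 501 of 3408 in PCDHB5. CTC-270D5.1 on the minus strand reaches into PCDHB2. Its log2 fold changes were 0.92 (SE 0.10) with TGF-β1 and -0.0009 (SE 0.12) with acetate against TGF-β1. The part of such genes in the beta counts was not tested. With TGF-β1 5 of the 8 genes tested were higher and none lower, and the remaining 5 of the 13 did not enter this test. Over all genes tested 34.1% were called higher in this comparison. PCDHB2, the most abundant, rose from 6.29, 5.85, 5.83 and 5.44 CPM in control to 9.61, 10.4, 10.6 and 9.82 with TGF-β1. It stood at 10.0, 9.86, 10.3 and 8.81 with acetate added, so the TGF-β1 and acetate groups overlapped and both lay above control. The log2 fold changes were 0.80 (SE 0.07, adjusted p = 2.87e-08) and, for acetate against TGF-β1, -0.04 (SE 0.07, adjusted p = 0.609).

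PCDHB5 was at 3.93, 3.08, 3.55 and 3.79 CPM in control cells, 5.92, 6.69, 6.65 and 6.21 after TGF-β1 and 7.60, 7.14, 7.26 and 7.42 with acetate added. The groups were separate, by 0.83 (SE 0.09, adjusted p = 4.39e-07) and 0.22 (SE 0.07, adjusted p = 0.0151) on the log2 scale. The smaller step lost its call without library S15 (adjusted p = 0.0855) and without S18 (0.0656). PCDHB6 had the largest beta change with TGF-β1. It rose from 0.902, 0.877, 0.767 and 0.603 CPM to 1.79, 2.32, 1.68 and 1.92, and then to 6.13, 5.56, 5.87 and 6.44. Its groups were far apart, with log2 fold changes of 1.29 (SE 0.17, adjusted p = 4.96e-06) and 1.66 (SE 0.11, adjusted p = 2.69e-09), and 2.93 between acetate and control (a 7.63-fold difference).

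PCDHB8 and PCDHB16 rose at both steps from lower levels. PCDHB16 went from 0.410, 0.469, 0.562 and 0.395 CPM to 0.881, 0.715, 1.12 and 0.877, and to 1.80, 1.56, 1.54 and 1.74 with acetate, and its groups did not overlap (1.00, SE 0.22, and 0.87, SE 0.17). PCDHB8 stood at 0.697, 0.673, 0.434 and 0.603 CPM in control, at 1.08, 0.800, 0.987 and 0.902 with TGF-β1 and at 1.75, 1.58, 1.37 and 1.67 with acetate, also without overlap. It changed by 0.64 (SE 0.20, adjusted p = 0.0105) and 0.76 (SE 0.16, adjusted p = 0.000743). PCDHB16 overlaps other annotated genes in 1247 of its 5001 exon bases.

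With acetate added to TGF-β1, 8 of 11 beta genes tested were higher than with TGF-β1 alone and none lower. Over all genes tested 63.7% were called in this comparison, 33.3% higher and 30.4% lower. Among the 11, PCDHB9, PCDHB10 and PCDHB13 passed the filter on low counts only through their acetate libraries. With at least 1 CPM required in 4 libraries, 4 beta genes were called higher and none lower. Under the filter used in the main fits, the largest change was in PCDHB10. It had 5, 0, 5 and 5 counts in the TGF-β1 libraries and 18, 24, 21 and 22 with acetate (log2 fold change 2.54, SE 0.40, adjusted p = 4.46e-05). PCDHB13 had 8, 3, 10 and 6 counts with TGF-β1 and 17, 23, 24 and 18 with acetate (1.67, SE 0.31), after 4, 9, 9 and 6 in control. PCDHB9 had 9, 4, 6 and 2 counts and then 10, 14, 21 and 18 (1.63, SE 0.38, adjusted p = 0.0015). These counts are small, and the libraries of the TGF-β1 and acetate groups were apart in all 3 genes. Because the acetate libraries, where they were high, admitted these genes to the test, their calls and ranks are description and not support for a rise. PCDHB11 also rose (1.07, SE 0.26, adjusted p = 0.00214). PCDHB2, PCDHB3 and PCDHB15 were tested without a call, and PCDHB4 and PCDHB14 were not tested here.

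**Figure D3:**
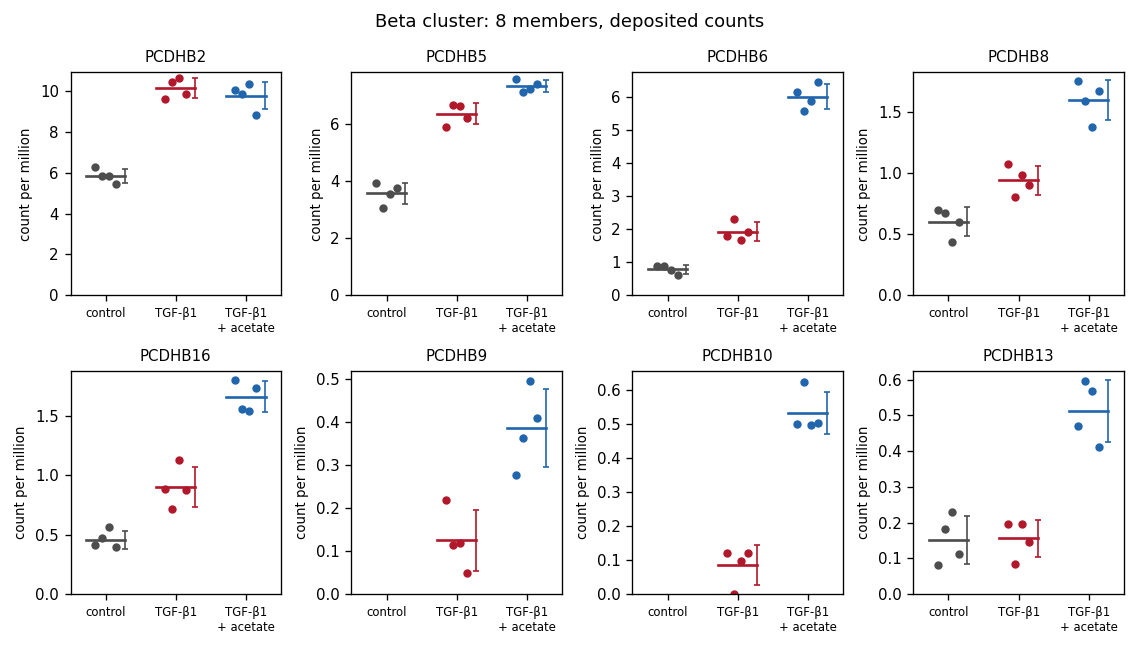
Deposited counts in CPM (vertical axes, each from 0) of 8 beta genes in control, TGF-β1 and TGF-β1 plus acetate libraries. Points are libraries (4 a group), lines are means and bars are SD, and PCDHB9 and PCDHB10 have no control values. PCDHB2 is level between TGF-β1 and acetate at means of 10.1 and 9.76, while PCDHB6 climbs from 1.93 to 6.00.

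With TGF-β1 the median change of the gamma genes was smaller in size than that of the alpha and of the beta genes. Its shared reads were 7.46, 5.89, 6.88 and 6.33 CPM in control, 7.80, 9.09, 6.69 and 6.75 with TGF-β1, and 10.7, 8.85, 8.68 and 11.3 with acetate added. Control and TGF-β1 overlapped (log2 fold change 0.19, SE 0.10, adjusted p = 0.109), as did TGF-β1 and acetate (0.40, SE 0.11, adjusted p = 0.00436), while all acetate libraries exceeded all control libraries (0.58, SE 0.11, adjusted p = 8.28e-05). Without library S17 the first difference passed the threshold (adjusted p = 0.0471). The 7 gamma genes called higher with TGF-β1 in the deposited counts were PCDHGB1, PCDHGA4, PCDHGA6, PCDHGB4, PCDHGA8, PCDHGB5 and PCDHGC3, by 0.21 to 0.32 on the log2 scale. The number of gamma genes called depended on single libraries: it was 19 without S17, 14 without S18, 4 without S2 and 4 without S4, and 3 with library totals, where the call of PCDHGC3 was among those lost (adjusted p = 0.0536). In specific reads 6 of 15 gamma genes tested were higher with TGF-β1 and none lower, where 66.9% of all genes were called. In the deposited counts 34.1% of all genes were called higher, so 7 of 22 gamma genes was near that share.

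The gamma specific reads were carried mainly by PCDHGB1, PCDHGB4, PCDHGB5 and PCDHGC3. PCDHGB1 had 3.71, 3.90, 3.40 and 3.95 CPM in control cells, 5.45, 5.29, 5.31 and 5.46 after TGF-β1 and 6.71, 6.80, 6.72 and 5.66 with acetate added. The groups were separate (0.52, SE 0.08, adjusted p = 2.56e-05, and 0.28, SE 0.08, adjusted p = 0.0082). The antisense gene AC005618.8 covers 554 of the 2592 own bases of PCDHGB1. Its log2 fold changes were 0.42 (SE 0.15) with TGF-β1 and 0.35 (SE 0.14) with acetate against TGF-β1. Its part in the specific reads of PCDHGB1 was not tested. PCDHGB5 gave 3.85, 4.12, 4.14 and 4.12 CPM, then 5.65, 5.06, 5.37 and 5.34, then 6.82, 6.41, 6.65 and 6.42, again without overlap (0.41, SE 0.08, and 0.31, SE 0.08). PCDHGB4 stood at 3.65, 3.67, 3.78 and 3.63 CPM in control, at 5.21, 4.69, 5.15 and 4.85 with TGF-β1, and at 6.32, 8.72, 6.88 and 7.86 with acetate (0.44, SE 0.08, and 0.59, SE 0.10). PCDHGB4 and PCDHGA8 have 2266 exon bases in common, so their values (PCDHGA8: 0.43, SE 0.13, and 0.57, SE 0.14) cannot be told apart in full.

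PCDHGC3, a C-type gene whose protein binds Axin1 and dampens Wnt signalling, had specific reads of 2.56, 2.22, 2.04 and 2.30 CPM in control. With TGF-β1 the values were 3.38, 3.23, 3.20 and 3.65, and with acetate 4.55, 4.96, 4.97 and 5.23. Its groups were separate (0.56, SE 0.11, adjusted p = 0.000205, and 0.56, SE 0.09, adjusted p = 5.56e-05). Scaled to the gamma shared reads, PCDHGC3 was higher by 0.38 with TGF-β1 (SE 0.13, adjusted p = 0.0179), a call lost without S3 (adjusted p = 0.0542) or S18 (0.0722), and by 0.54 (SE 0.13, adjusted p = 0.00123) with acetate and TGF-β1 against control. PCDHGC4, which interneurons need to survive in the mouse brain, was close to the limit of detection. It had 4, 6, 3 and 0 specific counts in control cells, 6, 2, 0 and 9 after TGF-β1 and 3, 4, 2 and 3 with acetate, and was not tested. PCDHGC5 had 0, 6, 4 and 1, then 11, 3, 11 and 7, then 13, 9, 10 and 8 specific counts. Its acetate libraries exceeded its control libraries (2.05, SE 0.56, adjusted p = 0.00304, and 2.69 without S2). PCDHGC5 passed the filter on low counts only through treated libraries, where it was high, so this call is description only.

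Acetate with TGF-β1 gave higher deposited counts than TGF-β1 alone for 45 of 49 members tested, and none was lower. These were 15 alpha, 8 beta and all 22 gamma genes, where 63.7% of all genes were called, 33.3% higher. As stated above, PCDHB9, PCDHB10 and PCDHB13 were admitted to this test only through their acetate libraries. The 15 alpha and the 22 gamma calls may rest largely on the shared reads of each cluster, so they cannot be taken as separate observations. The median log2 fold change was 0.96 over the alpha, 0.87 over the beta and 0.40 over the gamma genes, against 0.03 over all genes. With library totals the median over all genes was 0.16, and 9592 genes were higher and 4699 lower in place of 7437 and 6792. Leading deposited increases were those of PCDHAC1 (1.08), PCDHA3 (1.04) and PCDHA1 (1.00) in the alpha cluster, and of PCDHGA1 (0.49), PCDHGB4 (0.48) and PCDHGC3 (0.45) in the gamma cluster. In specific reads, where 63.6% of all genes were called, 12 of 13 alpha genes tested and 8 of 19 gamma genes tested were higher and none was lower. Of the alpha genes called, PCDHA1, PCDHA8 and PCDHA9 did not pass the filter on low counts without their acetate libraries. They were thus tested because of the group where they were high, and their calls are description only. PCDHA8, with 1, 2, 8 and 13 specific counts in TGF-β1 libraries and 23, 26, 29 and 20 with acetate, changed by 2.09 (SE 0.43). Without S18 that value was 2.77.

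Some genes departed from their cluster in this comparison as well. Scaled to the shared reads (63.6% of all genes called in that fit), PCDHAC1 rose by 1.04 more than the alpha cluster (SE 0.17, adjusted p = 7.05e-05) and PCDHA1 by 2.34 more (SE 0.44, adjusted p = 0.000254). PCDHA1 entered this fit only through its acetate libraries. PCDHA5 rose less than its cluster (-0.52, SE 0.12, adjusted p = 0.00126). PCDHA3 (0.28, SE 0.11) and PCDHA4 (-0.23, SE 0.09) were called too, but 5 of the 8 fits that left out 1 library lost the call for each, with adjusted p up to 0.164 and 0.146. PCDHGA1, at 1.27, 0.897, 0.843 and 1.41 CPM in control, went from 0.954, 1.03, 1.07 and 0.902 CPM of specific reads with TGF-β1 to 2.00, 2.26, 1.99 and 1.78 with acetate, and rose by 0.63 more than the gamma cluster (SE 0.18, adjusted p = 0.00753). PCDHGA7, at 2.54, 2.69, 2.47 and 2.75 CPM with TGF-β1 and 3.00, 2.15, 2.25 and 1.96 with acetate, was lower relative to the gamma cluster (-0.56, SE 0.15, adjusted p = 0.00515). In absolute terms its change was -0.15 (SE 0.14, adjusted p = 0.347).

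**Figure D4:**
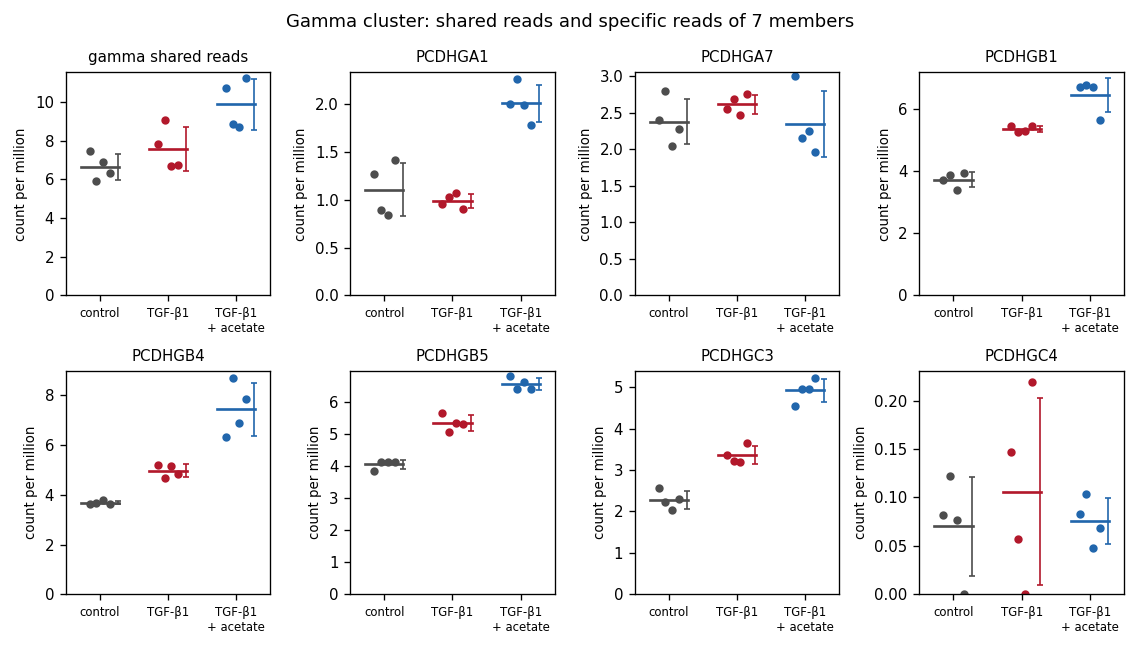
CPM (vertical axes, each from 0) of the gamma shared reads and of the specific reads of 7 gamma genes, in control, TGF-β1 and TGF-β1 plus acetate libraries. Points are libraries (4 a group), lines are means and bars are SD. PCDHGC3 steps from 2.28 to 3.36 and 4.93, PCDHGA1 rises only with acetate, and PCDHGC4 stays near 0.

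**Figure D5:**
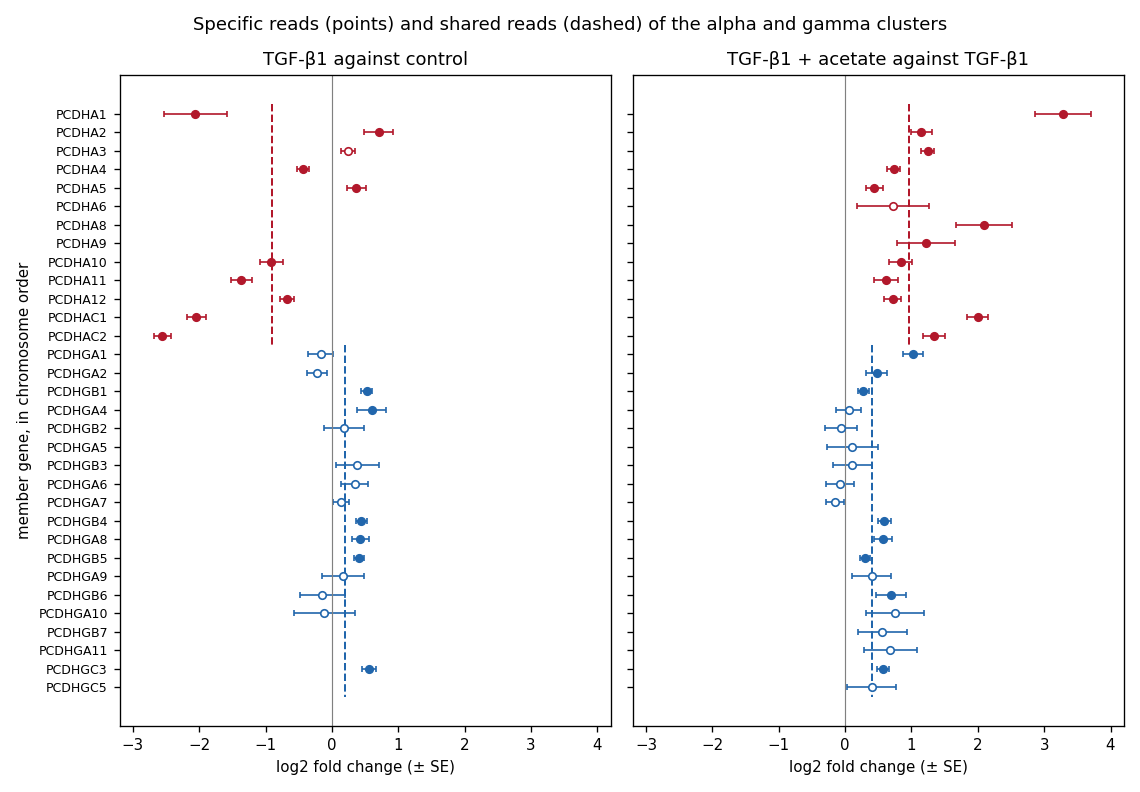
Log2 fold change with its SE (horizontal axes) of the specific reads of each alpha (red) and gamma (blue) gene tested, in chromosome order (vertical axis), for TGF-β1 against control (left) and acetate with TGF-β1 against TGF-β1 (right). Filled points passed an adjusted p below 0.05, and dashed lines are the shared reads of each cluster, at -0.91 and 0.19 on the left and 0.96 and 0.40 on the right. PCDHAC1 and PCDHAC2 lie left of the alpha line with TGF-β1, and PCDHA2, PCDHA3 and PCDHA5 lie right of it.

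The acetate group was also set against control, which places the members after both treatments. Of 48 members tested 32 were higher and 1 lower, where 70.6% of all genes were called, 36.1% higher and 34.4% lower. All 22 gamma genes and 7 of 10 beta genes tested were higher. PCDHB13 passed the filter on low counts here only through its acetate libraries. The 22 gamma calls may again rest largely on the same shared reads. In the alpha cluster 3 genes were higher, PCDHA3 (0.34, SE 0.04), PCDHA2 (0.12, SE 0.05) and PCDHA5 (0.12, SE 0.05), and PCDHAC2 was lower (-0.15, SE 0.05). Of these deposited calls that of PCDHAC2 was lost with library totals (adjusted p = 0.0793). Those of PCDHA2 and PCDHA5 were lost with DESeq2 (0.0752 and 0.129) and, among others, without control library S2 (0.134 and 0.240). In specific reads (70.6% of all genes called) the same 4 genes differed by more: PCDHA3 by 1.47 (SE 0.09), PCDHA2 by 1.83 (SE 0.17), PCDHA5 by 0.80 (SE 0.13) and PCDHAC2 by -1.23. In all, 7 of 14 alpha genes tested were higher and 2 lower, and 10 of 19 gamma genes tested were higher and none lower. Among those higher, PCDHA6, PCDHA8, PCDHGB7, PCDHGA11 and PCDHGC5 passed the filter on low counts only with the help of treated libraries. Relative to the shared reads (70.5% of all genes called) PCDHAC2 was lower by a log2 ratio of -1.26 (SE 0.12) and PCDHA3 higher by 1.43 (SE 0.11). The alpha shared reads therefore stood at the control level after both treatments while the genes contributing to the cluster were in other proportions than in control cells.

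The balance between the clusters was read from the shared reads alone, within each library, which needs no scaling for library size. The ratio takes no account of exon length, 2866 shared bases in the alpha and 2181 in the gamma cluster. It therefore compares groups and does not give the relative expression of the 2 clusters. Alpha shared reads exceeded gamma shared reads by a ratio of 3.22 ± 0.25 in control (SD, n = 4), 1.51 ± 0.22 with TGF-β1 and 2.23 ± 0.28 with acetate added. Each pair of groups was separate, with an exact two-sided permutation p of 0.0286, the smallest that 4 libraries against 4 can give. In CPM per kb, the shared exons held 7.42, 3.93 and 7.59 in the alpha and 3.04, 3.48 and 4.53 in the gamma cluster. Own exons summed to 8.06, 4.65 and 9.37 in the alpha and 7.39, 9.59 and 12.2 in the gamma cluster. By own exons the alpha cluster thus lay below the gamma cluster with TGF-β1 and with acetate added. Summed over a cluster with shared reads counted once, the alpha level was 55.4 CPM in control cells, 32.1 after TGF-β1 and 62.8 after TGF-β1 plus acetate, while the beta sum was 12.8, 21.9 and 29.2 and the gamma sum 31.8, 39.7 and 52.0. The beta sum covers 11 genes, without PCDHB9 and PCDHB10. Reads in own exons that 2 members hold may still enter these sums for both. Such exons include 562 bases of PCDHA2 and PCDHA3 and 2266 of PCDHGB4 and PCDHGA8.

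Genes that act with these proteins were counted from lists. Of 26 regulators of the clusters' chromatin (CTCF, cohesin, DNA methylation and silencing factors), 8 were higher and 10 lower with TGF-β1, with a median log2 fold change of -0.05 against 0.02 over all genes. That is near the 66.9% of all genes called in this comparison. Those with the smallest p were DNMT3B, a de novo DNA methyltransferase (2.29, SE 0.06), TRIM28, a corepressor (0.47, SE 0.04), and PDS5B, a cohesin regulator (0.60, SE 0.05). With acetate added none was higher and 19 were lower (median -0.24 against 0.03), led by TRIM28 (-0.76, SE 0.04), STAG1 (-0.72, SE 0.04) and RAD21 (-0.65, SE 0.03), the last 2 being cohesin subunits. Over all genes 63.7% were called with acetate against TGF-β1, 33.3% higher and 30.4% lower. Of 21 genes for partners of the protocadherin tail and for the proteases that cleave it, 9 were higher and 8 lower with TGF-β1 (median 0.009), beside 66.9% called over all genes. They included RET, a receptor kinase (6.68, SE 0.07), ADAM10, the protease that sheds the outer part (0.70, SE 0.04), and PTK2B, a kinase that the tail inhibits (-1.06, SE 0.06). With acetate 8 were higher and 6 lower (median -0.007, and 63.7% called over all genes), with RET at -2.26 (SE 0.06), FYN, a Src family kinase, at 2.55 (SE 0.11) and CYFIP2, of the actin-regulating WAVE complex, at 0.65 (SE 0.04).

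Protocadherins outside the clusters were measured for 7 of 13 genes. For the counts of this paragraph, 66.9% of all genes were called with TGF-β1, 34.1% higher and 32.8% lower. With acetate against TGF-β1 63.7% were called, 33.3% higher and 30.4% lower. With TGF-β1 4 of 5 tested were higher (median 0.67), including PCDH1 (1.79, SE 0.11), an airway epithelial protocadherin, PCDH10 (2.12, SE 0.22) and PCDH12 (0.67, SE 0.19). With acetate 2 of 6 tested were higher and 1 lower (median 0.28), with PCDH1 at 2.05 (SE 0.07), PCDH18 at 3.03 (SE 0.21) and PCDH9 at -0.85 (SE 0.05). PCDH1 and PCDH12 also lie near the clusters on chromosome 5, as do the other genes of a list of 22 neighbours, 21 of which were tested. Among these neighbours 13 were higher and 3 lower with TGF-β1 (median 0.23), led by CD14 (-3.12, SE 0.19), PCDH1 and FCHSD1 (0.69, SE 0.06). With acetate 9 were higher and 8 lower (median -0.05), led by PCDH1, CD14 (3.03, SE 0.19) and RELL2 (1.05, SE 0.07). Beside PCDHA14, 5 pseudogenes of the beta and gamma clusters were listed, and 1 of them could be tested at both steps, PCDHB17P, at -0.46 (SE 0.28, adjusted p = 0.154) and 1.54 (SE 0.26).

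The labelled cell type was checked against markers. Of 8 epithelial and alveolar markers 7 were in the tables, KRT8 (2179 to 2360 CPM in control) and KRT18 (1931 to 1969) were abundant, and the summed level ran from 4209 to 4431 CPM in control, 3463 to 3796 with TGF-β1 and 4128 to 4859 with acetate. No value was held for NKX2-1, and SFTPB stood at 0.102 to 0.179 CPM in control, so SFTPB was near the floor of 3 counts. CDH1 (-5.32, SE 0.10), KRT19 (-2.38, SE 0.07) and EPCAM (-1.98, SE 0.14) fell with TGF-β1, among 4 of 5 tested that did, and they rose with acetate by 4.97, 3.06 and 2.41. Of 8 neuron markers 4 were in the tables, with a summed level of 66.6 to 71.7, 45.1 to 51.3 and 113 to 121 CPM in the 3 groups. SNAP25 (-2.05, SE 0.07), RBFOX3 (-2.53, SE 0.14) and MAP2 (-1.52, SE 0.13) fell with TGF-β1, while the remaining one, SYT1, rose (0.18, SE 0.04). With acetate 4 of 4 rose, led by SYT1 (1.22, SE 0.04), SNAP25 (1.88, SE 0.08) and MAP2 (1.16, SE 0.11), while ELAVL3, ELAVL4, NEUROD1 and DCX had no row. The 3 fibroblast markers rose with TGF-β1 (LUM 3.42, PDGFRA 2.50, DCN 3.64) and again with acetate, their sum going from 0.594 to 0.816 CPM in control to 5.72 to 6.65 and then 17.6 to 20.4. No leukocyte or endothelial marker listed had a row. Beside these marker counts, 66.9% of all genes were called with TGF-β1 and 63.7% with acetate against TGF-β1. These marker levels moved with the same groups as the protocadherins, and their part in the protocadherin values was not tested.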

How the data were processed

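The authors deposited 2 tables of whole-number counts per gene, one with control and TGF-β1 libraries and one with TGF-β1 and TGF-β1 plus acetate libraries. The TGF-β1 columns are identical in both. The deposited tables also hold the authors' log2 fold changes, p-values and q-values. Per the submitters' processing notes, bcl2fastq, HISAT2, limma and hg38 were used. No source used here names the program that counted reads, whether it used strand, or its gene models. All 51 identifiers match GENCODE 29. Column codes carry no replicate number, so columns were placed in groups by the table's arrangement, and 32 further per-library columns were not used.

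From the counts, edgeR 4.0.16 quasi-likelihood tests were run with TMM scaling and filterByExpr (minimum count 10, minimum total 15), and p-values were adjusted by Benjamini-Hochberg over all genes tested (threshold 0.05). CPM values use TMM-scaled totals. For genes with shared exons the smallest count of a cluster in a library was taken as shared, subtracted from each member and tested once, with the count of the gene lowest over all libraries as an alternative. A second fit scaled specific reads by the shared count. Calls were tested on simulated counts with known changes. Alternatives were DESeq2 1.42.0, limma 3.58.1 voom, library totals, RLE factors, other filters and leaving out each library. Per cluster, the 4 genes with the highest mean CPM, the 3 called genes with the largest change in the first 2 comparisons and the C-type genes were described by library. PCDHA2, PCDHA5, PCDHA8, PCDHA10, PCDHA14, PCDHB9, PCDHB11, PCDHGA7 and PCDHGA8 were added after their values were seen. The members and lists were chosen with earlier results of these data known.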

Additional observations from a re-analysis of the deposited data

Results flagged for a closer look

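Single libraries stood apart from the other 3 of their group in 15 of 156 groups examined, judged by whether the gap to the nearest library, over the group's range, exceeded Dixon's critical value for 4 values. Chance alone flags about 1 group in 20, a rate that need not hold for specific reads near 0. The values are CPM, of deposited counts for beta genes and of specific reads for the others. In the control group library S2 was apart for PCDHA6 (0.306), PCDHA9 (0.571), PCDHGB3 (0.693) and PCDHGA6 (1.02), always as the highest, and S1 was the lowest for PCDHGB5 (3.85). Library S2 was the lowest control for PCDHB15 (0.0204). In the TGF-β1 group S17 was the highest for PCDHGA3 (0.0592) and S16 for PCDHGA12 (0.114). PCDHGA3 was often the smallest gamma gene, which sets its specific counts to 0 by the subtraction. They were 0, 0, 3 and 0 with TGF-β1 and 4, 0, 0 and 0 with acetate. PCDHGA12 had 4, 4, 5 and 4 with TGF-β1. In the acetate group S23 was the lowest for PCDHA3 (8.23) and the highest for PCDHGA4 (1.22), PCDHB10 (0.623) and PCDHB15 (0.441). S22 was the highest for PCDHGA3 (0.111) and the lowest for PCDHGA9 (0.333), and S25 was the lowest for PCDHGB1 (5.66). No cause of these gaps was tested.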

How the results depend on the processing

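With TGF-β1 the number of members called, 27 of 46 tested, was 23 to 27 under the other scalings, tools and filters and 24 to 39 when 1 library was left out, 39 without S17. For acetate against TGF-β1 it was 45 of 49, with 41 to 45 and 43 to 46. For acetate with TGF-β1 against control it was 33 of 48, with 31 to 33 and 31 to 34. Over all genes tested 66.9%, 63.7% and 70.6% were called in the 3 main fits. Testing shared reads once and specific reads in place of deposited alpha and gamma counts gave 21, 30 and 27 calls. These counts include beta genes and the shared reads of a cluster where called. Only 25, 32 and 33 alpha and gamma genes had enough specific reads to be tested, so fewer rows were tested than with deposited counts. Over all genes 66.9%, 63.6% and 70.6% were called in those fits. The median alpha change for acetate against TGF-β1 moved from 0.96 to 1.09 with library totals. Direction changed for 2 uncalled values: PCDHB2 for acetate against TGF-β1 went to 0.0889 with library totals and ranged from -0.0914 to 0.00497 when 1 library was left out, and the alpha shared reads for acetate with TGF-β1 against control ranged from -0.00162 to 0.0575. Of 605 refits of named members from deposited counts, 19 lost the call and 2 changed sign. Counting the shared alpha reads once gave a summed change of -0.79 with TGF-β1 and 0.18 for acetate with TGF-β1 against control, and leaving out PCDHB2 gave beta sums of 0.72 for acetate against TGF-β1 and 1.49 against control. No paired analysis was possible because the count columns carry no replicate number. Reads of members at a few counts limit PCDHA1, PCDHA8, PCDHGC4, PCDHGC5, PCDHB9 and PCDHB10. Counting error is not separated from differences between cultures.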
